A study of Mus musculus with 12 samples.

Results

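RNA of granulocyte-macrophage progenitors (GMP) was compared between PU.1 Q202L knock-in (KI) mice and their wild-type (WT) littermates, with 3 KI and 3 WT arrays out of 12 in the series. The 6 arrays were chosen by their sample titles. All cells came from the liver of newborns taken at birth or just before it, bred from heterozygous parents. The sample records give the strain as C57Bl/6, while the study's reporting form gives a mixed strain. The study describes its KI mice as homozygous, and they carried the mutant allele in every cell type. The WT samples were GMP, sorted as cells without lineage markers or Sca-1 and with c-kit, high CD16/32 and CD34. The KI samples were the GMP-like cells found in the mutant, whose CD34 the study describes as intermediate, while the sample records give the CD34+ gate for both genotypes. The other 6 arrays, of short-term stem cells (ST-HSC) of the same genotypes, entered the estimate of the spread and the comparison of the populations. For ST-HSC the sample records give CD48+ and the study CD48-, and the study calls the source fetal liver, so which stem cell gate was used is not settled. Which animals gave which sample is not stated, so a p-value here reflects only how far these samples scatter, and that scatter may be technical.

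PU.1, encoded by Spi1, is an ETS transcription factor that binds a purine-rich core in the promoters and enhancers of many myeloid genes. It works together with other factors, among them c-Jun of the AP-1 family, and the Q202L exchange was selected to break the contact with c-Jun while DNA binding is kept. GMP give rise to neutrophils, monocytes and macrophages, and are known for making the enzymes of the primary granules before mature functions appear. Monocyte and macrophage development needs PU.1 together with IRF8 and the M-CSF receptor, whereas the granulocyte path leans on C/EBP factors.

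Many monocyte and macrophage genes fell in the KI GMP-like cells, among them genes of the Ms4a cluster, the NADPH oxidase subunit Cybb, the transcription factors Tfec, Mef2c and Irf8, and Nckap1l, the blood-cell subunit of the WAVE actin complex. Mpo and Ctsg, granule enzymes that mark GMP, were at the top of the scale in both genotypes and were not called. The transcripts that rose included the pancreatic elastase Cela3b, the anion exchanger Slc26a3, the membrane protease Kel and the growth factor Bmp4. Levels are given as log2 RMA values per probe set, a group of short probes that read 1 transcript, so a difference of 1 is a factor of 2. A call is an adjusted p under 0.05 by limma, a linear model with a moderated estimate of the spread, with Benjamini-Hochberg adjustment over 45037 probe sets. By this rule 475 probe sets (1.05% of those tested) were higher and 484 (1.07%) lower in KI GMP-like cells. With 1 probe set per gene, the one with the highest mean over the 12 arrays, 217 of 18193 genes (1.19%) were higher and 254 (1.4%) lower. Of the called genes 64 were higher and 99 lower by more than 2, and 8 and 18 by more than 4. The median difference over all genes was −0.03. The shares of all genes, 1.19% higher and 1.4% lower, are the background for the counts of called list members below.

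When the 6 GMP arrays were fitted alone, 56 genes (0.308%) were higher and 69 (0.379%) lower. The arrays correlated at 0.968 to 0.973 within KI, at 0.968 to 0.975 within WT and at 0.949 to 0.966 between the genotypes over all probe sets. Xist, which coats the silenced X chromosome of female cells, read 3.36, 3.27 and 2.98 in KI and 10.67, 3.46 and 11.01 in WT, so it was high in WT replicates 1 and 3 only. The Y-linked gene Kdm5d was low in those arrays, at 9.82, 9.90 and 9.48 in KI and 2.53, 9.07 and 3.13 in WT. Sex and genotype are thus partly confounded. Calls lost with the Xist level as a covariate, or without the WT arrays of high Xist, are given beside the genes. The latter fit leaves out such arrays in both populations, among them WT GMP replicates 1 and 3. The 1 WT GMP array then left is assumed to vary like the other groups. WT ST-HSC arrays of high Xist are dropped too, so the estimate of the spread also rests on fewer arrays. Without these arrays 204 probe sets were higher and 245 lower.

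Some defining markers of GMP, such as Mpo and Ctsg, were high in both genotypes. Others, Ms4a3 and Cd34, fell, and Elane and Prtn3 were lower without a call, as given below. Mpo, the myeloperoxidase of the primary granule, read 13.43, 13.51 and 13.41 in KI and 13.51, 13.48 and 13.57 in WT, a difference of −0.07 (95% confidence interval −0.35 to 0.21, adjusted p = 0.881). Cathepsin G (Ctsg) read 13.31, 13.28 and 13.07 in KI and 13.19, 13.16 and 13.25 in WT, a difference of 0.02 (interval −0.52 to 0.56, adjusted p = 0.985). The arrays of the genotypes overlapped for both genes, and both lie near the highest value of an array, 14.2 to 14.3, where differences are compressed. Kit, the receptor used in the gate, differed by 0.30 (adjusted p = 0.71) and Fcgr3, a chain of CD16/32, by 0.63 (adjusted p = 0.157). Markers of other cells were low in part. Cd3e of T cells read 2.49, 2.60 and 3.04 in KI and 2.60, 2.88 and 2.56 in WT, and Adgre1 of macrophages 3.23, 3.12 and 2.84 in KI and 3.93, 4.40 and 4.30 in WT. Cdh5 of endothelium stood at 4.17, 3.66 and 3.63 against 3.86, 4.21 and 3.80, and Pf4 of platelets at 3.47, 4.54 and 3.83 against 3.80, 3.93 and 6.42, with its highest value in WT replicate 3. Mast cell and megakaryocyte genes such as Cpa3 and F2r stood high in KI, and their values are given with their lists.

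Cd34 itself fell. It read 6.85, 6.86 and 6.66 in KI and 9.66, 9.53 and 9.80 in WT, a difference of −2.87 (standard error 0.152, adjusted p = 6.98e-06). The KI arrays lay together, far below the WT arrays. Cd34 is also a gate marker, so the sort and the message cannot be told apart. The other gene of the gate list to fall was Ptprc, at 6.46, 5.13 and 4.12 in KI and 9.45, 9.49 and 9.25 in WT (difference −4.16, adjusted p = 0.00122, 1 of 2 probe sets). Ptprc encodes CD45, which was not itself a gate, but a form of it, B220, is among the study's lineage markers. Of the 9 measured gate markers these 2 fell and none rose, and the median was −0.02. Ptprc was not called without the WT arrays of high Xist (adjusted p = 0.0711).

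The message of PU.1 did not pass the test. Spi1 read 8.28, 8.95 and 8.71 in KI and 7.95, 8.36 and 8.47 in WT, a difference of 0.39 (interval −0.02 to 0.80, adjusted p = 0.384), with overlapping arrays. The substitution changes the protein, so these probes do not check the allele. Among the 15 measured genes of the AP-1 family, partners and relatives of c-Jun, 1 rose and none fell, with a median of 0.12. Jund, a member made in most cells, read 10.65, 10.75 and 10.88 in KI and 9.53, 10.05 and 9.98 in WT, a difference of 0.91 (adjusted p = 0.0137, 1 of 2 probe sets). Jund was not called in the 6-array fit (adjusted p = 0.123), with the Xist covariate (0.0786), without the WT arrays of high Xist (0.167) or without KI replicate 3 (0.0527). Jun, which encodes c-Jun itself, read 9.51, 7.98 and 10.00 in KI and 7.73, 9.46 and 7.99 in WT and overlapped (adjusted p = 0.671). Fos, the usual partner of c-Jun, read 7.83, 6.24 and 7.95 in KI and 5.12, 5.70 and 4.76 in WT, without overlap but not called (difference 2.14, adjusted p = 0.121). Fosl2 and Jdp2 leaned the other way without a call, at −1.70 and −1.27 (adjusted p = 0.153 and 0.123).

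**Figure D1:**
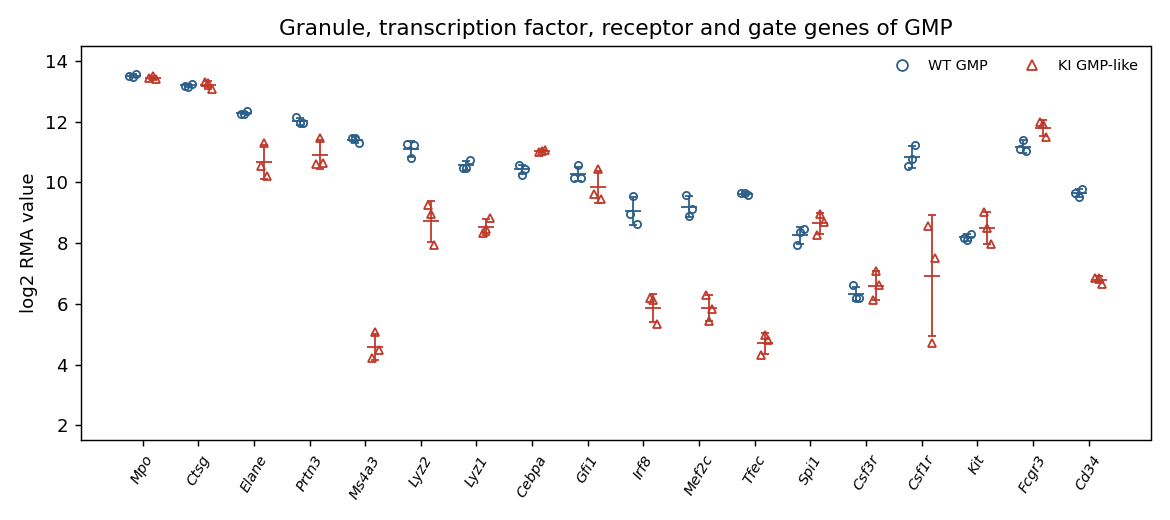
Log2 RMA value (vertical axis) of 18 granule, transcription factor, receptor and gate genes in each of the 6 GMP arrays, with circles for WT GMP, triangles for KI GMP-like cells, and a bar with whiskers for the mean and SD (n = 3 per group). Mpo and Ctsg overlap between the genotypes, while all KI arrays of Ms4a3, Lyz2, Lyz1, Irf8, Mef2c, Tfec and Cd34 lie below all WT arrays.

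Of 14 measured genes in the list of primary granule proteins, which also holds the membrane protein Ms4a3, 4 fell and none rose, and the median was −0.61. The study had tabled 3 genes of this list from the same samples, so the count is not independent evidence of its direction. In the 6-array fit, and likewise without the WT arrays of high Xist, 2 fell. Ms4a3, a membrane protein of granulocyte progenitors, read 4.22, 5.06 and 4.46 in KI and 11.47, 11.46 and 11.30 in WT. Its difference of −6.83 (standard error 0.441, adjusted p = 2.9e-05) is a factor of 114 and the largest fall over the brightest probe sets of all genes. The lysozymes, enzymes that cut bacterial cell walls, fell less. Lyz2 read 9.25, 8.96 and 7.96 in KI and 11.27, 10.79 and 11.24 in WT (difference −2.38, adjusted p = 0.00226), and Lyz1 8.33, 8.46 and 8.83 in KI and 10.49, 10.49 and 10.74 in WT (difference −2.03, adjusted p = 0.000269, 2 of 3 probe sets). These are close paralogs, and a probe may read both messages. Hexa, a lysosomal hexosaminidase, fell by 1.45 (adjusted p = 0.0156). Lyz2 was not called in the 6-array fit (adjusted p = 0.062) or without the WT arrays of high Xist (0.123). Hexa was not called in the 6-array fit (adjusted p = 0.125), with the Xist covariate (0.0537) or without the WT arrays of high Xist (0.11).

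The serine proteases other than Ctsg were lower in KI without a call. Elane, neutrophil elastase, read 10.54, 11.30 and 10.20 in KI and 12.26, 12.26 and 12.34 in WT (difference −1.61, adjusted p = 0.0865). Prtn3, proteinase 3, read 10.62, 11.48 and 10.66 in KI and 12.15, 11.95 and 11.95 in WT (difference −1.10, adjusted p = 0.112). The arrays did not overlap for either gene. Over all genes, 8.26% had the KI arrays wholly above and 11.1% wholly below the WT arrays, called or not. Of 21 genes of later neutrophil granules 2 fell and none rose, with a median of −0.03. Chil3, a chitinase-like protein, read 2.55, 2.44 and 2.85 in KI and 6.65, 6.39 and 5.70 in WT (difference −3.64, adjusted p = 0.0132). Ltf, lactoferrin, read 4.48, 4.10 and 4.20 in KI and 5.44, 5.52 and 6.11 in WT (difference −1.43, adjusted p = 0.0127). Camp, the precursor of an antimicrobial peptide, varied widely within KI, at 11.19, 6.86 and 8.58, and overlapped with WT. Chil3 was not called without WT replicate 1 (adjusted p = 0.0526). Ltf was not called in the 6-array fit (adjusted p = 0.0698) or without the WT arrays of high Xist (0.0607).

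Among the transcription factors, 3 that are tied to monocyte and lymphoid differentiation fell, out of 44 myeloid factors measured, and none rose. The median of the list was −0.06. Tfec, a factor of the MiT family made in macrophages, read 4.32, 4.97 and 4.80 in KI and 9.66, 9.66 and 9.57 in WT (difference −4.94, standard error 0.248, adjusted p = 5.62e-06). Mef2c read 6.30, 5.43 and 5.85 in KI and 9.59, 8.90 and 9.13 in WT (difference −3.35, adjusted p = 7.97e-05), and all 5 of its probe sets were called. Irf8, which directs monocyte and dendritic cell fate, read 6.18, 6.11 and 5.34 in KI and 8.98, 9.57 and 8.64 in WT (difference −3.18, adjusted p = 0.00291). For these genes every KI array lay below every WT array. Cebpa, the C/EBP factor that GMP depend on, differed by 0.61 (interval 0.07 to 1.16, adjusted p = 0.278), and Gfi1, a repressor active in the granulocyte path, by −0.45 (adjusted p = 0.607). Irf8 was not called without the WT arrays of high Xist (adjusted p = 0.0501).

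The largest falls came from genes of several kinds. B4galt6, which makes lactosylceramide, read 4.24, 3.89 and 4.73 in KI and 10.12, 10.26 and 10.06 in WT (difference −5.86, standard error 0.298, adjusted p = 5.62e-06, 4 of 4 probe sets). Nckap1l read 3.79, 4.34 and 4.47 in KI and 9.36, 9.23 and 9.38 in WT (difference −5.12, adjusted p = 5.62e-06), while its paralog Nckap1, the form of most other tissues, rose and read 7.71, 7.74 and 7.29 in KI and 3.74, 3.82 and 5.74 in WT (difference 3.15, adjusted p = 0.00991). The KI and WT arrays of each of these genes lay far apart, in opposite directions for the paralogs. Igsf6, an immunoglobulin superfamily member of myeloid cells, read 7.12, 6.92 and 5.07 in KI and 11.44, 11.35 and 11.36 in WT (difference −5.01, adjusted p = 0.00107). Gatm, the first enzyme of creatine synthesis, read 5.58, 4.58 and 4.40 in KI and 9.30, 9.87 and 9.59 in WT (difference −4.74, adjusted p = 0.000162). Ldhb, a subunit of lactate dehydrogenase, read 7.02, 5.95 and 5.96 in KI and 10.66, 10.93 and 11.23 in WT (difference −4.63, adjusted p = 7.97e-05), and all 4 of its probe sets fell. At the probe set with the largest fall Ldhb read 3.29, 3.45 and 3.08 in KI and 10.79, 10.83 and 10.50 in WT (difference −7.43, adjusted p = 1.54e-07). The KI mean there lay under the lower quartile of the KI arrays. Ldha, the other main subunit, differed by 0.08 and was not called (adjusted p = 0.85). Nckap1 was not called in the 6-array fit (adjusted p = 0.0875). Igsf6 was not called without the WT arrays of high Xist (adjusted p = 0.0568).

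At the brightest probe sets the 15 largest falls ran from −6.83 to −4.63. All 15 were called in the 6-array fit, with the Xist covariate and in each fit without 1 GMP array, and 13 without the WT arrays of high Xist. In 12 of them every probe set was called, and in 2 the KI mean lay under the lower quartile of the KI arrays, where RMA compresses differences.

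**Figure D2:**
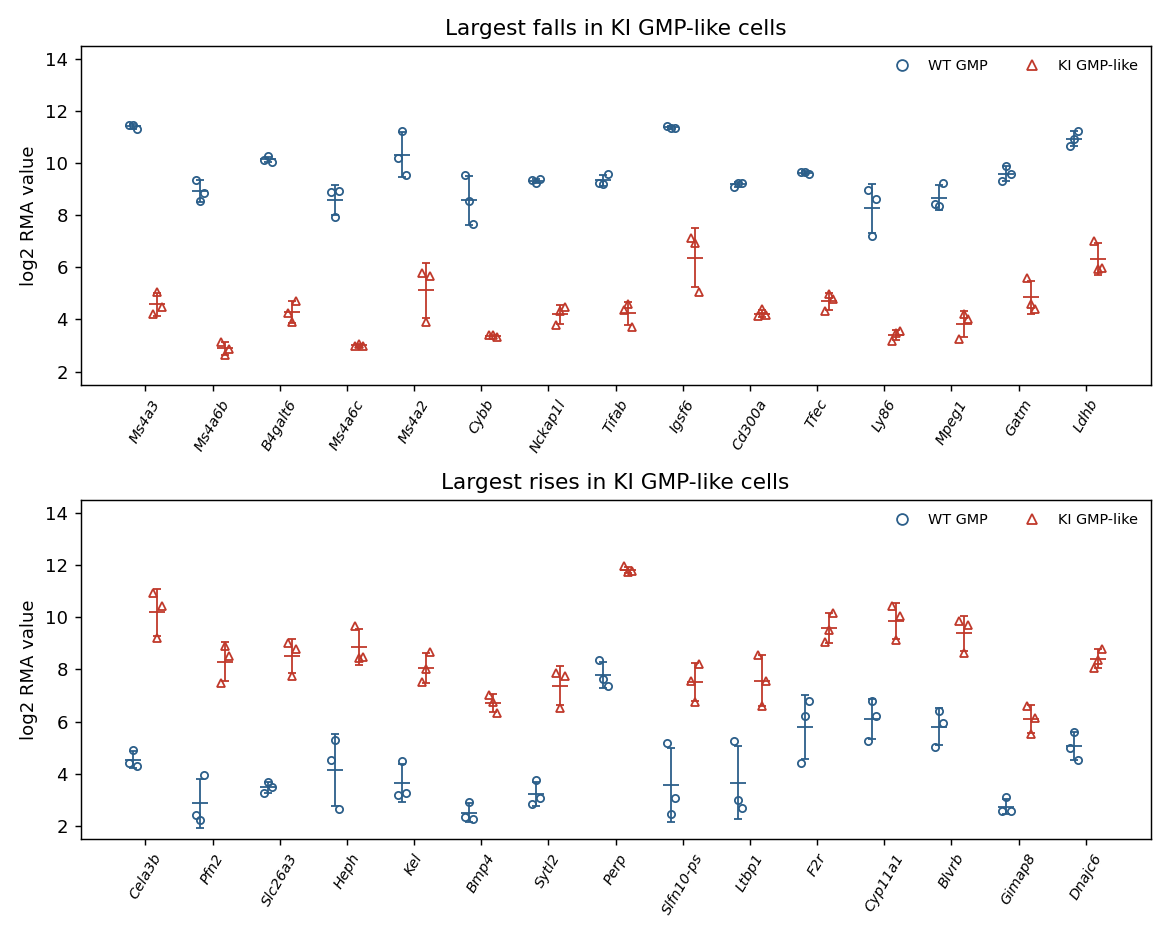
Log2 RMA value (vertical axis) in each of the 6 GMP arrays of the 15 called genes with the largest fall (upper panel) and the 15 with the largest rise (lower panel) at their brightest probe sets, with circles for WT GMP, triangles for KI GMP-like cells, and a bar with whiskers for the mean and SD (n = 3 per group). The KI and WT arrays of these genes do not overlap, and the differences run from −6.83 to −4.63 in the upper and from 5.65 to 3.36 in the lower panel.

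Promoters of genes that moved in opposite directions are shown for the letters of a PU.1 site. Each line gives the 250 bases before the gene start from RefSeq (GRCm38.p6), 5′ to 3′ on the gene's strand, and capitals mark GAGGAA, a core of PU.1 sites, or its reverse complement TTCCTC. Cd300a and Igsf6 fell, and Slc26a3 and Cela3b rose.
Cd300a (chr11:114889791-114890040, plus strand): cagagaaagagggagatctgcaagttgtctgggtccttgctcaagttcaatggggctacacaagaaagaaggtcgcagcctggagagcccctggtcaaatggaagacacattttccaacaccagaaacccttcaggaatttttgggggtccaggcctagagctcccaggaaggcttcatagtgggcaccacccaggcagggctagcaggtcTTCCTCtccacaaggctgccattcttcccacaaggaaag
Igsf6 (chr7:121074531-121074780, minus strand): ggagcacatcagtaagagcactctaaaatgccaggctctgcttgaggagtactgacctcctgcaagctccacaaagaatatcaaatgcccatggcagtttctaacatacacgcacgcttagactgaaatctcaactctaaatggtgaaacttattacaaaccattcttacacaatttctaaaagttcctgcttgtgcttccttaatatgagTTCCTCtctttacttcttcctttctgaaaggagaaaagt
Slc26a3 (chr12:31437969-31438218, plus strand): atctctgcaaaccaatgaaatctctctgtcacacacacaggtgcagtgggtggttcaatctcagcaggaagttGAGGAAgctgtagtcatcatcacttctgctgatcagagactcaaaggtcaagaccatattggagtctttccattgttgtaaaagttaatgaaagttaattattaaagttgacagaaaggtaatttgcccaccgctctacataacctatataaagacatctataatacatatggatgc
Cela3b (chr4:137430521-137430770, minus strand): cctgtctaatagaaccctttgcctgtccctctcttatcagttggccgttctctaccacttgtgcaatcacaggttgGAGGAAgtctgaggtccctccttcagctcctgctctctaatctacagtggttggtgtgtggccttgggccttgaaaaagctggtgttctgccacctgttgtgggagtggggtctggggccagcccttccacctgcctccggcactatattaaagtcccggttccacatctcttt
The match began 39 bases before the start in both printed genes that fell, and 177 and 174 bases before it in the printed genes that rose. Positions were not compared over all called genes, so these examples give no rule of position. On either strand, GAGGAA was found in 25.9% of the promoters of genes called lower, in 25% of those called higher, in 22.8% of those of all genes on the array and in 23.3% of all 32851 promoters. TGANTCA, the AP-1 letters, was found in 5.98%, 7.73%, 5.6% and 6.75% of the same sets. The windows of Ms4a3, Ms4a6b, Ldhb and Tfec held neither. That of Mpo, which was not called, held GAGGAA at 247 and 224 bases before the start. That of Cybb, which fell, held TGAATCA at 139 bases. A match is a description of letters and not a bound site.

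Genes long known to be bound and driven by PU.1 fell more often than they rose. Among 34 of them on the array 11 fell and 1 rose, with a median of −1.18. The study had tabled 3 of them from the same samples, and in the 6-array fit 5 fell and none rose. Without the WT arrays of high Xist 6 fell, with the Xist covariate 8 did, and in both 1 rose. Cybb, which carries the electrons in the NADPH oxidase of phagocytes, read 3.40, 3.40 and 3.34 in KI and 9.54, 8.53 and 7.65 in WT (difference −5.19, adjusted p = 0.00052, 2 of 3 probe sets). Ncf1, a cytosolic subunit of this enzyme, read 8.41, 8.08 and 7.79 in KI and 10.76, 10.53 and 10.62 in WT (difference −2.54, adjusted p = 0.00052, 2 of 3 probe sets). None of the other 6 measured subunits and partners of the oxidase passed, with Cyba, which anchors Cybb in the membrane, at −0.45 (adjusted p = 0.47) and Ncf4 at −1.53 (adjusted p = 0.134). Cd300a, an inhibitory receptor of myeloid cells, read 4.12, 4.39 and 4.17 in KI and 9.07, 9.24 and 9.24 in WT (difference −4.96, standard error 0.205, adjusted p = 2.62e-06, 1 of 2 probe sets). Tlr4, the receptor for bacterial lipopolysaccharide, read 2.55, 4.72 and 2.64 in KI and 7.57, 7.72 and 6.76 in WT (difference −4.05, adjusted p = 0.00749, 2 of 4 probe sets). Targets that were low in both genotypes and not called included Blnk, an adapter of B cells, at 0.08, and Cd14, which hands lipopolysaccharide to Tlr4, at −0.76 (adjusted p = 0.908 and 0.339). Tlr4 was not called in the 6-array fit (adjusted p = 0.068) or without the WT arrays of high Xist (0.0897).

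Receptors for growth factors went both ways. Of 29 measured, 3 fell and 1 rose, with a median of −0.04. In the 6-array fit 1 fell and none rose, and without the WT arrays of high Xist 1 fell and 2 rose. Csf1r, the M-CSF receptor, was spread over 8.57, 4.71 and 7.50 in KI. It read 10.53, 10.77 and 11.25 in WT (difference −3.92, adjusted p = 0.0409, 3 of 3 probe sets). Another probe set of Csf1r read 4.36, 4.34 and 4.84 in KI and 6.82, 6.29 and 7.50 in WT (difference −2.36, adjusted p = 0.0163). That probe set was not called in the 6-array fit (adjusted p = 0.053) or with the Xist covariate (0.0743). The last probe set differed by −1.60 (adjusted p = 0.0382). Il5ra, the IL-5 receptor chain of eosinophils, read 4.18, 3.84 and 3.84 in KI and 5.81, 6.53 and 6.94 in WT (difference −2.48, adjusted p = 0.0022). Il6ra, the IL-6 receptor chain, read 4.86, 5.69 and 6.78 in KI and 9.19, 8.34 and 8.50 in WT (difference −2.90, adjusted p = 0.0325, 1 of 2 probe sets). Csf2rb, the signaling chain common to the receptors for IL-3, IL-5 and GM-CSF, was the PU.1 target that rose and read 11.90, 11.55 and 11.98 in KI and 10.45, 9.35 and 9.92 in WT (difference 1.90, adjusted p = 0.0111). All KI arrays of Csf2rb lay above the WT arrays. Csf3r, the G-CSF receptor, overlapped, with a difference of 0.27 (adjusted p = 0.772). At its brightest probe set Csf1r was not called in the 6-array fit (adjusted p = 0.171), with the Xist covariate (0.137) or without the WT arrays of high Xist. Nor was it called there without any 1 GMP array other than KI replicate 1 and KI replicate 2 (up to 0.117). Il6ra was not called in the 6-array fit (adjusted p = 0.0877), with the Xist covariate (0.143), without the WT arrays of high Xist (0.163) or without any 1 GMP array other than KI replicate 3 (up to 0.103). Csf2rb was not called in the 6-array fit (adjusted p = 0.0698).

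Of 40 measured monocyte and macrophage genes 14 fell and 2 rose, with a median of −1.16. The study had tabled 3 of them. In the 6-array fit 8 fell and 1 rose, and without the WT arrays of high Xist 13 fell and none rose. Ms4a6b, a membrane protein of phagocytes, read 3.14, 2.65 and 2.88 in KI and 9.36, 8.56 and 8.86 in WT (difference −6.04, standard error 0.269, adjusted p = 2.88e-06), and its neighbour Ms4a6c 2.98, 3.08 and 2.96 in KI and 8.90, 7.92 and 8.91 in WT (difference −5.57, adjusted p = 9.52e-06, 1 of 2 probe sets). Their KI values lie at the low end of the arrays. Tifab, a regulator of TRAF signaling, read 4.38, 4.60 and 3.72 in KI and 9.26, 9.18 and 9.58 in WT (difference −5.11, adjusted p = 5.62e-06). Mpeg1, a pore-forming protein of phagocytes, read 3.24, 4.19 and 4.01 in KI and 8.45, 8.34 and 9.23 in WT (difference −4.86, adjusted p = 0.000167). Ly86, which pairs with a Toll-like receptor homologue, read 3.19, 3.48 and 3.55 in KI and 8.97, 7.21 and 8.64 in WT (difference −4.87, adjusted p = 0.00199). Ccl9, a chemokine of myeloid cells, read 8.34, 8.82 and 8.68 in KI and 11.63, 11.40 and 11.97 in WT (difference −3.06, adjusted p = 0.000123). The arrays of these genes lay far apart between the genotypes. Adgre1 and Cd68 of mature macrophages were not called, though each KI array of Adgre1 lay below every WT array. Lgals3, the sugar-binding galectin-3, was 1 of the 2 that rose, at 8.81, 8.01 and 8.48 in KI and 5.64, 6.08 and 5.37 in WT (difference 2.73, adjusted p = 0.00605). Slfn2 was the other (difference 1.54, adjusted p = 0.0153). Lgals3 was not called without the WT arrays of high Xist (adjusted p = 0.0658).

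The Ms4a genes encode membrane proteins of blood cells and lie in a cluster on chromosome 19. Of 13 measured members 4 fell, none rose and the median was −1.18. The study had tabled 3 of them. Beside Ms4a3, Ms4a6b and Ms4a6c the list held Ms4a2, the beta chain of the IgE receptor, at 5.80, 3.89 and 5.65 in KI and 10.20, 11.24 and 9.55 in WT (difference −5.21, adjusted p = 0.0106). Ms4a4b and Ms4a6d did not pass, at −2.43 and −2.01 (adjusted p = 0.112 and 0.189). The summed unlogged level of the family was 203 to 232 per KI array and 4493 to 6124 per WT array. Ms4a2 was not called without the WT arrays of high Xist (adjusted p = 0.0787).

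The gate for c-kit without lineage markers is meant to remove the mature macrophages and hepatocytes of the liver, and their genes were measured all the same. None of 20 measured genes of fetal liver macrophages was called, with a median of −0.21 and a summed level of 983 to 1180 in KI and 663 to 906 in WT. Of 15 hepatocyte genes 2 fell. These were Hnf4a, a liver transcription factor, at 3.96, 3.71 and 3.68 in KI and 6.64, 5.99 and 8.38 in WT (difference −3.22, adjusted p = 0.0102, 1 of 4 probe sets), and Afp, the fetal serum protein, at 4.35, 5.09 and 4.63 in KI and 6.52, 6.36 and 6.96 in WT (difference −1.92, adjusted p = 0.0021, 1 of 5 probe sets). Alb overlapped, at 4.93, 6.22 and 4.20 in KI and 4.72, 6.73 and 7.12 in WT. The summed level of the hepatocyte genes was 463 to 585 in KI and 587 to 1315 in WT, and their part in the falls was not tested. In bulk RNA, fewer cells of a kind within the gate and less RNA per cell cannot be told apart. Hnf4a was not called in the 6-array fit (adjusted p = 0.0969), with the Xist covariate (0.061) or without the WT arrays of high Xist (0.0743). Afp was not called without the WT arrays of high Xist (adjusted p = 0.0785).

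The called Fc and Toll-like receptor genes fell, and lysosomal, actin and glycosphingolipid genes moved in both directions. Of 26 Fc receptors and adapters 2 fell and none rose, Cd300a and Tyrobp, the adapter DAP12 of activating receptors, at 11.60, 10.16 and 10.23 in KI and 12.30, 12.26 and 12.09 in WT (difference −1.56, adjusted p = 0.0327). Tlr4 and Ly86 were the called genes of 19 of Toll-like receptors and their signaling, and Ccl9 that of 21 chemokines and receptors. Over all genes 1.19% were called higher and 1.4% lower. Among 14 cathepsins, proteases of the lysosome, Ctss, which trims the class II invariant chain, read 3.73, 3.85 and 3.81 in KI and 7.92, 6.35 and 8.49 in WT (difference −3.79, adjusted p = 0.00426), and Ctsd rose (0.63, adjusted p = 0.0273). The arrays of Ctss lay apart. Of 32 integrins and actin regulators 2 rose, Nckap1 and the integrin chain Itgb7 (2.67, adjusted p = 0.00418), and 3 fell. Among those that fell was Coro1a (−0.65, adjusted p = 0.0261, 2 of 3 probe sets), a coronin of blood cells. Ugcg, which makes glucosylceramide, the substrate of B4galt6, rose (0.94, adjusted p = 0.0137, 2 of 4 probe sets). B4galt5 rose too (0.81, adjusted p = 0.0321, 1 of 2 probe sets), while B4galt4 fell (−2.29, adjusted p = 0.0218), of 21 genes of that pathway. Bak1, a pore-forming promoter of apoptosis, fell (−1.01, adjusted p = 0.0423, 1 of 2 probe sets) and Perp rose among 20 apoptosis regulators. Jund and Ddit4 (3.18, adjusted p = 0.0476) rose among 26 immediate early and stress genes, and neither was called in the 6-array fit. Pecam1, which blood cells share with endothelium, was the called gene of 16 endothelial genes (1.79, adjusted p = 0.0432), and Ptprc that of 7 lineage markers. In the 6-array fit Tyrobp, Ctss, Ctsd, Coro1a, Ugcg, B4galt5, B4galt4, Bak1, Ddit4 and Pecam1 were not called (adjusted p = 0.0517 to 0.191), nor were they, apart from Ctss, without the WT arrays of high Xist (0.0566 to 0.333). Each of them but Ctss also lost its call in at least 1 fit without 1 GMP array, while Itgb7 was called in all of these fits.

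The called genes of the B lymphoid, interferon and antigen presentation lists fell, while most called T and NK genes rose. H2-DMa, which loads peptides on MHC class II, fell (−3.03, adjusted p = 0.00212, 1 of 2 probe sets). At the brightest probe sets it was the only called gene of 10 in the antigen presentation list, whose median was −1.44. Another probe set of H2-Aa, a class II chain, was also called, at 3.20, 3.54 and 3.88 in KI and 5.73, 7.39 and 9.76 in WT (difference −4.09, adjusted p = 0.0292). H2-Aa at that probe set was not called in the 6-array fit (adjusted p = 0.162), with the Xist covariate (0.121) or without any 1 GMP array other than WT replicate 1 and WT replicate 3 (up to 0.0757). Cd74, the class II invariant chain, did not pass (−2.06, adjusted p = 0.258). Of 25 B lymphoid genes Tnfrsf13b, Cd79b and Btk fell (differences −2.15, −2.12 and −1.63) and none rose. Of 30 T and NK genes 5 rose and Cd27, a TNF receptor also found on progenitors, fell (−3.32, adjusted p = 0.00589). Rora, Cd3g, Lat, Gzmb and Prf1 were the 5 that rose, with Gzmb, a granule protease also made by mast cells, at 6.15, 6.20 and 5.97 in KI and 4.38, 4.53 and 4.30 in WT (difference 1.71, adjusted p = 0.0007). Of the T and NK genes 1 rose in the 6-array fit, 1 without the WT arrays of high Xist and 3 with the Xist covariate. Of 28 interferon response genes Oas1a, Gbp3, Psmb9 and Psmb8 fell and none rose, with a median of −0.63. None of 18 dendritic cell genes was called. In the 6-array fit none of the B lymphoid and interferon genes was called, and without the WT arrays of high Xist 1 and 0 fell. H2-DMa was not called without the WT arrays of high Xist (adjusted p = 0.0808). Cd27 was not called in the 6-array fit (adjusted p = 0.0929) or without the WT arrays of high Xist (0.183).

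**Figure D3:**
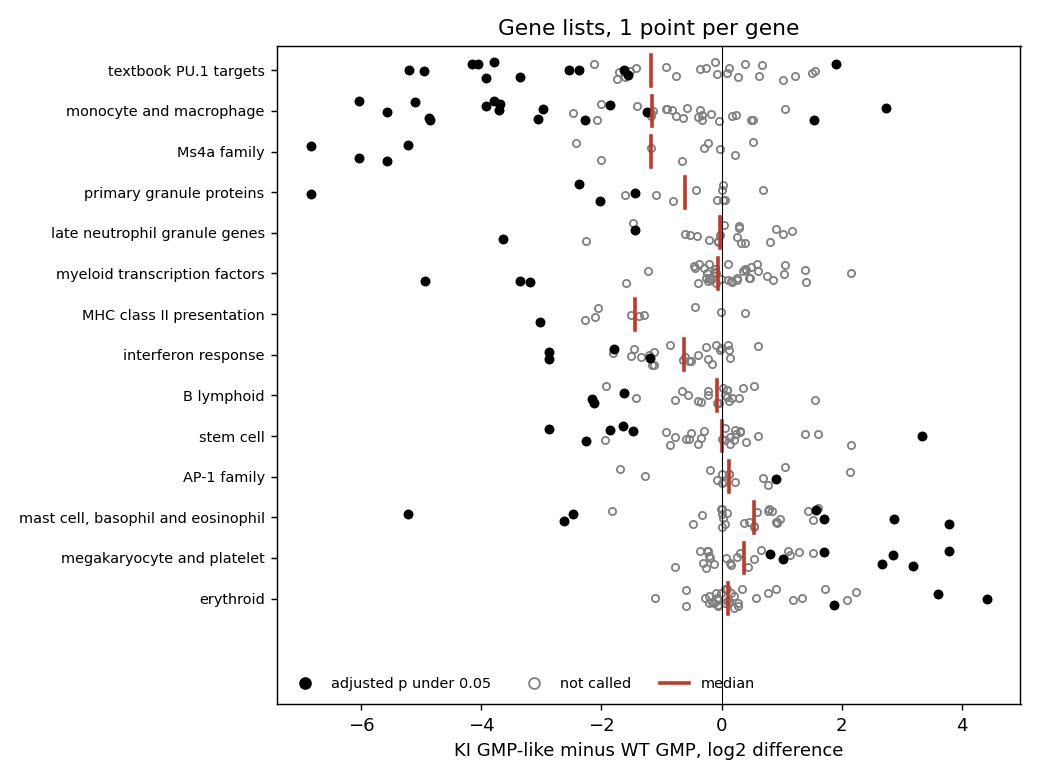
Difference between KI GMP-like cells and WT GMP (horizontal axis, log2) for each gene of the lists, with 1 point per gene at its brightest probe set, filled where the adjusted p is under 0.05, and a bar at the median of the list. The medians of the PU.1 targets (−1.18), the monocyte and macrophage genes (−1.16) and the Ms4a family (−1.18) lie to the left of 0, and those of the megakaryocyte (0.38) and mast cell lists (0.54) to the right.

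In the megakaryocyte and erythroid lists genes rose and none fell. Of 28 megakaryocyte and platelet genes 7 rose and none fell, with a median of 0.38, but 1 rose in the 6-array fit, 1 without the WT arrays of high Xist and 3 with the Xist covariate. F2r, a thrombin receptor, read 9.05, 9.52 and 10.18 in KI and 4.43, 6.20 and 6.78 in WT (difference 3.79, adjusted p = 0.00386). Mmrn1, a protein of platelet granules, read 8.09, 7.21 and 5.46 in KI and 3.44, 3.83 and 3.94 in WT (difference 3.18, adjusted p = 0.0102, 1 of 2 probe sets), and Gp1bb, a chain of the von Willebrand factor receptor, 8.42, 7.25 and 6.75 in KI and 4.69, 4.80 and 4.36 in WT (difference 2.86, adjusted p = 0.0026). Gfi1b, a repressor needed for megakaryocytes and red cells, read 7.74, 7.32 and 7.65 in KI and 5.83, 6.09 and 5.66 in WT (difference 1.71, adjusted p = 0.00142). The others were Thbs1, Plek and Nfe2. The defining platelet genes Pf4, Ppbp and Gp9 were not called, nor were Itga2b (0.54, adjusted p = 0.522) and Vwf. The summed level of the list was 9480 to 11051 in KI and 6671 to 7489 in WT. F2r was not called in the 6-array fit (adjusted p = 0.081). Mmrn1 was not called in the 6-array fit (adjusted p = 0.12), with the Xist covariate (0.0542) or without the WT arrays of high Xist (0.194). Gp1bb was not called in the 6-array fit (adjusted p = 0.0613) or without the WT arrays of high Xist (0.119). Gfi1b was not called without the WT arrays of high Xist (adjusted p = 0.0683).

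Of 36 erythroid genes 3 rose and none fell, also in the 6-array fit, with a median of 0.11. The 3 are 8.33% of the list, against 1.19% of all genes called higher. Kel, the Kell blood group protease, read 7.51, 8.02 and 8.65 in KI and 3.19, 4.49 and 3.27 in WT (difference 4.41, adjusted p = 0.000285). Blvrb, biliverdin reductase B, read 9.86, 8.63 and 9.69 in KI and 5.03, 6.42 and 5.94 in WT (difference 3.60, adjusted p = 0.00426). Tspo2, a transporter of erythroid cells, read 6.35, 6.16 and 5.61 in KI and 4.15, 4.35 and 4.04 in WT (difference 1.86, adjusted p = 0.0034). The globins Hba-a1, Hba-x and Hbb-y were low in both genotypes. The factors Gata1 and Gata2 were higher in each KI array than in any WT array without a call at their brightest probe sets (differences 1.34 and 1.60, adjusted p = 0.0813 and 0.0639), while the other probe set of Gata2 was called (1.72, adjusted p = 0.036). Gata2 at that probe set was not called in the 6-array fit (adjusted p = 0.117), with the Xist covariate (0.122), without the WT arrays of high Xist (0.17) or without any 1 GMP array other than KI replicate 2 and WT replicate 2 (up to 0.11). Tspo2 was not called without the WT arrays of high Xist (adjusted p = 0.107).

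Of 32 mast cell, basophil and eosinophil genes 4 rose and 3 fell, with a median of 0.54. Cyp11a1, the enzyme that starts steroid synthesis, read 10.45, 9.12 and 10.06 in KI and 5.27, 6.79 and 6.22 in WT (difference 3.78, adjusted p = 0.00212, 1 of 3 probe sets). Cma1, a mast cell chymase, read 8.32, 6.97 and 7.87 in KI and 4.66, 4.99 and 4.91 in WT (difference 2.87, adjusted p = 0.0324). Cpa3, mast cell carboxypeptidase, read 11.68, 11.50 and 11.35 in KI and 9.66, 9.86 and 10.31 in WT (difference 1.57, adjusted p = 0.0157). Gzmb was the fourth. Against these, Ms4a2 and Il5ra fell, as did Siglecf, a lectin of eosinophils, at 7.13, 7.07 and 6.27 in KI and 8.78, 10.11 and 9.43 in WT (difference −2.62, adjusted p = 0.00742). Without the WT arrays of high Xist, and likewise with the Xist covariate, 2 of the list rose, and without 1 GMP array 2 to 7 did. So members of 1 list moved in both directions. Cyp11a1 was not called without the WT arrays of high Xist (adjusted p = 0.0837). Cma1 was not called with the Xist covariate (adjusted p = 0.139), without the WT arrays of high Xist (0.0622) or without any 1 GMP array other than KI replicate 2 (up to 0.101). Cpa3 was not called with the Xist covariate (adjusted p = 0.0877) or without WT replicate 1 (0.0593). Siglecf was not called in the 6-array fit (adjusted p = 0.0637).

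Of 31 stem cell genes 5 fell and 1 rose. Beside Cd34 the genes that fell were Hoxa9 (−2.26, 1 of 2 probe sets called), Sox4 (−1.86, 2 of 8), Cd93 (−1.65, 4 of 5) and Lmo2 (−1.48). Sdc2, the proteoglycan syndecan-2, rose. It read 8.71, 8.99 and 7.95 in KI and 5.72, 4.78 and 5.15 in WT (difference 3.34, adjusted p = 0.000682, 3 of 4 probe sets). In the 6-array fit 1 gene fell and 1 rose, and without the WT arrays of high Xist 2 fell and 1 rose. Hoxa9 was not called in the 6-array fit (adjusted p = 0.123), with the Xist covariate (0.0751), without the WT arrays of high Xist (0.153) or without KI replicate 3 or WT replicate 1 (up to 0.0546). Sox4 was not called in the 6-array fit (adjusted p = 0.0592) or without the WT arrays of high Xist (0.0684). Cd93 was not called in the 6-array fit (adjusted p = 0.0749), with the Xist covariate (0.0554) or without the WT arrays of high Xist (0.189). Lmo2 was not called in the 6-array fit (adjusted p = 0.15), with the Xist covariate (0.0919), without the WT arrays of high Xist (0.304) or without WT replicate 1 or WT replicate 3 (up to 0.0623).

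At the brightest probe sets the 15 largest rises ran from 5.65 to 3.36. Cela3b, an elastase best known from the pancreas, read 10.93, 9.20 and 10.45 in KI and 4.42, 4.91 and 4.29 in WT (difference 5.65, standard error 0.472), a factor of 50.3, and all 4 of its probe sets rose. Pfn2, a profilin that regulates actin, read 7.49, 8.91 and 8.52 in KI and 2.43, 2.23 and 3.95 in WT (difference 5.44, adjusted p = 0.00451, 2 of 3 probe sets). Slc26a3, an exchanger of chloride and bicarbonate, read 9.02, 7.76 and 8.77 in KI and 3.26, 3.70 and 3.47 in WT (difference 5.04, adjusted p = 1.73e-05, 3 of 4 probe sets). Every KI value of these genes lay above the upper quartile of its array, and the WT values lay near or below the median. Bmp4, a secreted growth factor, read 7.03, 6.74 and 6.34 in KI and 2.32, 2.91 and 2.26 in WT (difference 4.20, adjusted p = 5.33e-05). Perp, a membrane protein induced by p53, read 11.97, 11.74 and 11.80 in KI and 8.36, 7.63 and 7.38 in WT (difference 4.04, adjusted p = 0.000698). Heph, a copper-dependent iron oxidase, read 9.67, 8.45 and 8.48 in KI and 4.52, 5.30 and 2.63 in WT (difference 4.72, adjusted p = 0.00379). Of these 15 rises 11 were called in the 6-array fit, 14 with the Xist covariate, 13 without the WT arrays of high Xist and 13 in each fit without 1 GMP array. In 4 the WT mean lay under the lower quartile of the WT arrays. Heph was not called in the 6-array fit (adjusted p = 0.0645).

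Carriers and metabolic enzymes moved both ways. Of 25 aquaporins and solute carriers, a list drawn up from the study's own table, 2 rose and 3 fell. The study had tabled 4 of them from the same samples, so the count is not independent evidence of their directions. Slc16a7, a monocarboxylate carrier, read 2.86, 3.20 and 3.33 in KI and 6.05 to 7.15 in WT (difference −3.60, adjusted p = 0.00165), and Slc25a12, the mitochondrial aspartate and glutamate carrier, 4.96, 5.36 and 5.77 in KI and 8.64, 8.53 and 8.60 in WT (difference −3.23, adjusted p = 5.95e-05, 1 of 3 probe sets). Slc16a10, a carrier of aromatic amino acids, fell by 2.64 (adjusted p = 0.00154, 2 of 4 probe sets). Aqp3, a water and glycerol channel, was not called at its brightest probe set (0.25, adjusted p = 0.46), but another probe set of Aqp3 read 9.19, 8.39 and 9.03 in KI and 2.38, 2.70 and 2.59 in WT (difference 6.31, adjusted p = 0.000774). Only 1 of its 4 probe sets was called. Of 23 genes of glycolysis and lactate Pdk2, a kinase that switches off pyruvate dehydrogenase, rose (2.33, adjusted p = 0.0058), while Ldhb, Hk3, a hexokinase of myeloid cells (−2.93, adjusted p = 0.0114), and Pdk3 (−0.78, adjusted p = 0.0375) fell. Of 32 cell cycle genes E2f2, an S-phase factor, rose. It read 9.80, 8.57 and 9.22 in KI and 6.81, 6.45 and 6.81 in WT (difference 2.51, adjusted p = 0.00136, 1 of 2 probe sets). Ccnd1, cyclin D1, fell (−1.60, adjusted p = 0.0496, 1 of 3 probe sets). Those are 3.125% of the list each way, against 1.19% and 1.4% of all genes. Hk3 was not called in the 6-array fit (adjusted p = 0.0993). Pdk3 was not called in the 6-array fit (adjusted p = 0.128), with the Xist covariate (0.125), without the WT arrays of high Xist (0.263) or without any 1 GMP array other than KI replicate 2 (up to 0.123). Ccnd1 was not called in the 6-array fit (adjusted p = 0.17), with the Xist covariate (0.189), without the WT arrays of high Xist (0.333) or without any 1 GMP array other than WT replicate 2 (up to 0.154).

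The same genotypes were also measured in ST-HSC, and the difference of KI minus WT was set side by side. Of the 471 genes called in GMP 166 were called in ST-HSC in the same direction, 73 higher and 93 lower. That is 35.2% of the GMP list and 30.3% of the ST-HSC list, in which 547 of all 18193 genes were called. Both comparisons share 1 estimate of the spread, and Xist was uneven between the genotypes in both, so the overlap is not independent evidence. Of the 15 largest falls 14 were also called lower in ST-HSC, and of the 15 largest rises 11 were called higher. Ms4a6b differed by −6.32 in ST-HSC and Nckap1l by −5.19 (adjusted p = 8.97e-06 and 1.05e-05). The test of the difference between the populations called 22 probe sets (0.0488%). Bmp4 was 1 of them, with 4.20 in GMP and 0.38 in ST-HSC. B4galt6 fell in both, by 5.86 in GMP and at −2.56 in ST-HSC. Lgals3 rose in GMP and fell in ST-HSC (−2.03, adjusted p = 0.0233), the 1 gene called in opposite directions at its brightest probe set. Mef2c, Irf8, Tfec and Csf1r were not called for a difference between the populations (adjusted p = 0.158, 0.109, 0.396 and 0.514 at their brightest probe sets).

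**Figure D4:**
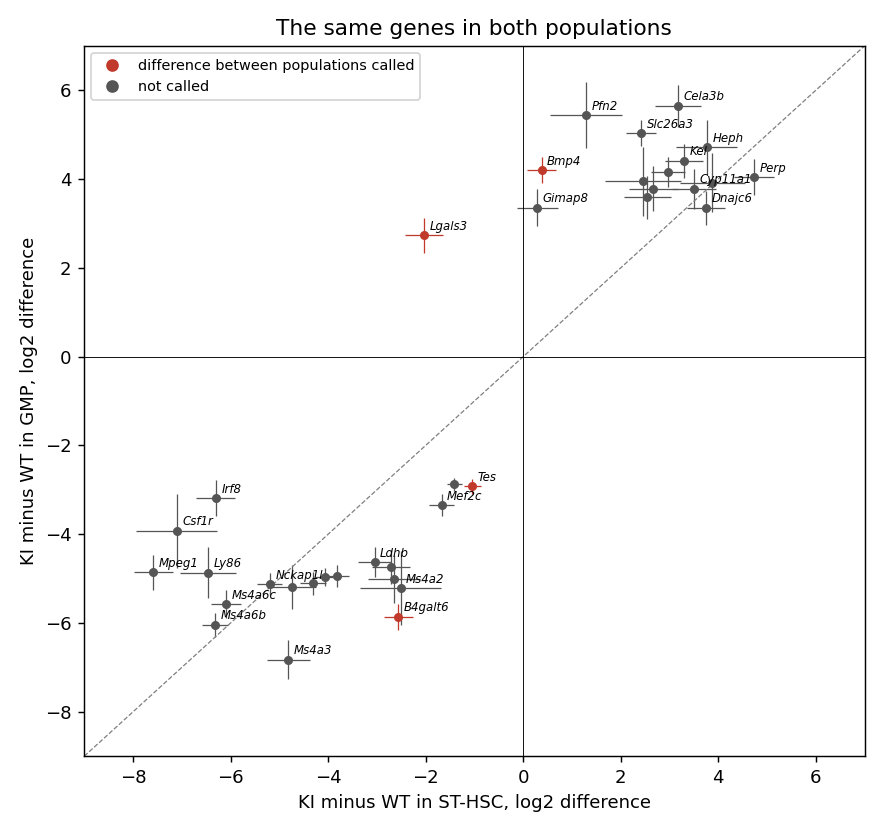
Difference of KI minus WT in GMP (vertical axis, log2) against that in ST-HSC (horizontal axis, log2) for the named genes, with filled colour for a called difference between the populations and a dashed line where both are equal, and labels on some genes only. Bmp4 lies at 4.20 in GMP and 0.38 in ST-HSC, and Lgals3 at 2.73 and −2.03.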

How the data were processed

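RNA of sorted newborn liver cells was amplified linearly, labelled with biotin and hybridized to Affymetrix mouse arrays, 1 array per sample. The authors computed RMA values in R-Bioconductor, and log2 values of 45101 probe sets were deposited. The RMA version is not stated in the sources. RMA aligns arrays by quantiles, yet the deposited array medians were 4.70 to 4.79 in GMP and 5.00 to 5.10 in ST-HSC. Array signals carry no read depth, so the 3 arrays per group limit the precision.

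After 64 AFFX controls were dropped, 45037 probe sets were tested with no filter. By the platform annotation 34945 have 1 gene symbol, 932 several and 9160 none, and only the first kind was named. KI minus WT in GMP was fitted with limma 3.58.1 in R 4.3.3 (4 group means over 12 arrays, eBayes, 8 residual and 2.52 prior degrees of freedom, two-sided), with Benjamini-Hochberg adjustment. An exact permutation test of 3 against 3 could not go below 0.1. In a simulation of this comparison over 45037 probe sets, 34%, 78%, 98% and 98% of changes of 1, 2, 3 and 4 on the log2 scale were called, with 9 false calls. Its noise was normal and independent, at the moderated spread of this same fit, without uneven sex or outlying arrays. So it does not give the error rate of the real calls.

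The genes and the 35 lists were chosen with earlier results of these data known. Named were Spi1, Xist, gate markers, AP-1 genes, genes tabled by the study, the 15 largest rises and falls without overlap, up to 4 called members per list, lists of up to 12 genes in full and 8 genes that differ between the populations. Other named genes were added after their values were seen. Between KI and WT GMP samples of the same replicate number, deviations from the group means correlated at −0.038 to −0.004. This cannot tell whether a number marks a shared litter or day. What a number marks is not stated, and the main fit held no block.

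Alternatives were the 6 GMP arrays alone, centring, quantile normalization, filters on low values, probe sets without _s_at and _x_at, the mean of a gene's probe sets, unlogged means, a trended prior, SAM (rewritten, 20 permutations, exchangeability percentile 5), a replicate block, sex and limits on size. Leaving out each ST-HSC array, and counting lists without the WT arrays of high Xist, were chosen after seeing the data.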

Additional observations from a re-analysis of the deposited data

Results flagged for a closer look

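For 8 probe sets of 7 genes the effect of the genotype differed between GMP and ST-HSC by a test of the difference itself (limma, Benjamini-Hochberg over all probe sets). In each case the value is KI minus WT in GMP less KI minus WT in ST-HSC on the log2 scale. The difference was 3.82 for Bmp4 (adjusted p = 0.013), which was called in 10 of 12 fits without 1 array, with adjusted p of 0.00984 to 0.0573. It was 4.76 for Lgals3 (adjusted p = 0.0192, called in 7 of 12 such fits, 0.00309 to 0.0828). For Satb1, a chromatin organizer of lymphoid cells, 1 of 5 probe sets gave 3.46 (adjusted p = 0.0108, 11 of 12 fits, up to 0.0524), with 1.22 in GMP and −2.23 in ST-HSC. That probe set is not the brightest of Satb1, whose brightest probe set was not called.

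Ldhb fell further in GMP, with a difference of −3.64 at 1 probe set (adjusted p = 0.00271), called in all 12 fits without 1 array (up to 0.0136). At its brightest probe set the difference of Ldhb was −1.58 and not called (adjusted p = 0.384). B4galt6 gave −3.29 and −3.58 at 2 probe sets (adjusted p = 0.0365 and 0.0261, each called in 4 of 12 fits). Tes, an adapter of focal adhesions, gave −1.88 (adjusted p = 0.0365, 3 of 12 fits). For Mef2c 1 of 5 probe sets gave −1.99 (adjusted p = 0.0445, 2 of 12 fits). Without the WT arrays of high Xist the adjusted p was 0.0715 for Bmp4, 0.0876 for Lgals3, 0.106 and 0.0294 for B4galt6, 0.112 for Tes, 0.132 for Mef2c, 0.0294 for Satb1 and 0.0437 for Ldhb.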

How the results depend on the processing

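No named call changed its direction under any alternative run, but when a gene's probe sets were averaged instead of taking the brightest the difference moved by at least the replicate SD in 34 of 49 named calls that have several. The counts of probe sets higher and lower (475 and 484) stayed within 1.5 times under median centring, quantile normalization, both filters on low values, without _s_at and _x_at probe sets, with a trended prior, without X and Y genes and at a limit of 1 on the log2 scale. They were 147 and 172 at a limit of 2, 122 and 124 with the 6 GMP arrays alone, 12 and 31 by SAM, 307 and 300 with the Xist covariate and 204 and 245 without the WT arrays of high Xist. With the replicate number as a block in the 6-array fit 1 was higher and 9 lower, and what a number marks is not stated. Of the 959 calls 220, 40, 389, 206 and 10 were made again in the 6-array fit, by SAM, with the covariate, without those arrays and with the block. Leaving out 1 of the 12 arrays gave 252 to 540 higher and 271 to 553 lower. KI GMP-like replicate 3, WT GMP replicate 1 and KI ST-HSC replicate 2 lowered both counts by over 1.5 times (276 and 279, 282 and 271, 252 and 296), and WT GMP replicate 3 that of higher probe sets (267). Of 99 named calls 54 were made again with 6 arrays and 51 without the WT arrays of high Xist. The count that differed between the populations, 22, was 114 without those arrays and 7 to 59 with 1 array left out, at 11, 14, 12, 7 and 9 without KI GMP-like replicate 1, WT GMP replicate 1 and KI ST-HSC replicates 1, 2 and 3, and 59 and 55 without WT ST-HSC replicates 1 and 2. The cause was not tested.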
